A study of Mus musculus with 8 samples.

Results

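The NADPH oxidase subunits described here are 6 genes: Ncf1, Ncf4, Rac2, Cyba and Cybb, whose products form the oxidase of phagocytes, and Nox4, which encodes a separate oxidase. They were taken as a list of named genes out of 15156 genes with a retained probe by a rule that used gene names and the detection of probes, not their difference between groups. The list itself was chosen with earlier results of these data known. All 6 genes had a probe that passed the filter on detection. Cardiac RNA was taken 24 h after surgery from 4 mice with permanent occlusion of the anterior interventricular artery (MI mice) and from 4 mice that underwent the same operation without coronary ligation (sham-operated mice). All mice were male, of the C57BL\6 background, and were described as adult without a stated age. The ventricles of each heart gave 1 RNA sample, so infarcted and spared tissue were measured together, and each sample was hybridized to 1 mouse SurePrint G3 array in 1 colour. In such bulk samples, fewer cells of a type and less RNA per cell cannot be told apart.

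The phagocyte oxidase transfers electrons from NADPH to oxygen and releases superoxide, which neutrophils and macrophages use against microbes and which also reaches the surrounding tissue. Cybb encodes gp91phox (also called NOX2), the catalytic subunit in the membrane, and Cyba encodes p22phox, its stabilizing partner. In a resting phagocyte, regulators stay in the cytosol, among them the organizer p47phox (Ncf1), the modulator p40phox (Ncf4) and the small GTPase RAC2, which is found mainly in blood cells. On stimulation they move to the membrane and switch the enzyme on. NOX4 also binds p22phox, but it needs none of the cytosolic subunits, is constitutively active and yields mainly hydrogen peroxide. It is known from cardiomyocytes, fibroblasts, endothelial cells and smooth muscle rather than from phagocytes.

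The promoters of the oxidase genes are shown because the comparison sets genes of phagocytes against a gene of tissue cells, and because Cybb is a textbook target of the myeloid factor PU.1 and of CCAAT-binding factors. The RefSeq table used (build GRCm38.p6) held 4 of the 6 genes. Each window is 280 bases long, from 250 bases before the start of the listed transcript to 30 bases after it, printed 5′ to 3′ on the strand of the gene. Capitals mark the letters GAGGAA (a form of the PU.1 core, on the other strand TTCCTC) and the box CCAAT (on the other strand ATTGG). Each was searched on both strands.
Ncf1 (chr5:134229596-134229875, minus strand): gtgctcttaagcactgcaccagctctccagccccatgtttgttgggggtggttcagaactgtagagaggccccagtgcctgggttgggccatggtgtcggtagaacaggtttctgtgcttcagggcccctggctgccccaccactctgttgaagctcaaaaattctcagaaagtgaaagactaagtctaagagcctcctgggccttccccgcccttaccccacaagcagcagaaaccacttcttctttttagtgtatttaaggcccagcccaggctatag
Cybb (chrX:9469295-9469574, minus strand): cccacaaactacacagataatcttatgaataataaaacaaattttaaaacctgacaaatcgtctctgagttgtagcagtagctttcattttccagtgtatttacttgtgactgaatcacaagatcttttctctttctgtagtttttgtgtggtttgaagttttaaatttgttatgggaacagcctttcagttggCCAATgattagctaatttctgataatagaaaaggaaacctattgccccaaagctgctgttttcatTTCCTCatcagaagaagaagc
Nox4 (chr7:87246399-87246678, plus strand): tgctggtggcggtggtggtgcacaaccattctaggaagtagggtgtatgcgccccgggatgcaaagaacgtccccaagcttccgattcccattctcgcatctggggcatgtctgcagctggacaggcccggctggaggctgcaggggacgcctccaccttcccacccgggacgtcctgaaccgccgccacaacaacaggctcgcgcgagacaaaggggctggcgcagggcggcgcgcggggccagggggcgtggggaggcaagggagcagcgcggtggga
The letters GAGGAA were found in the Cybb window alone, on the strand opposite to the gene, from base 10 to base 15 after the start. A match of letters does not show that PU.1 binds there, and other forms of its motif were not searched. CCAAT was likewise found in the Cybb window alone, from base 56 to base 52 before the start, and the matches do not overlap. Of 32851 promoters of the same length, 26.0% held GAGGAA and 36.1% held CCAAT on either strand. Neither was found in the windows of Ncf1, Nox4 or Cyba, which says only that these letters are not in these windows.

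Of the 6 genes, 3 rose in MI mice, none fell, and 3 did not pass the test. The 3 that rose, by between 2.59-fold and 3.00-fold, were the cytosolic subunits among the 6 genes. The membrane subunits Cyba and Cybb were 1.39-fold and 1.52-fold higher in MI mice and Nox4 was at 0.707-fold of the level in sham-operated mice, none of them past the test. Calls required a change of more than 2-fold and an adjusted p below 0.05 in limma (Benjamini-Hochberg correction across 34038 retained probes). Of all retained probes, 3.48% were called: 3.07% higher and 0.405% lower in MI mice. The higher calls made up 88.3% of all calls, against 72.2% when the 75th percentiles of the arrays were set equal and 69.0% after quantile normalization. The median log2 fold change of all probes was 0.12 on the scale used here, which rests on the authors' spike-in normalization, and −0.02 and −0.03 on those other scales. Levels below are log2 values on the spike-in scale, given for MI replicates 1 to 4 and sham replicates 1 to 4, and every difference is MI minus sham. Values of different probes are not comparable as levels.

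Ncf1 encodes the organizer p47phox. Its log2 signals were 8.98, 8.80, 9.22 and 9.44 in MI mice, and 8.03, 7.44, 7.74 and 7.57 in the sham group. All MI mice were above all sham-operated mice. Means were 9.11 ± 0.28 after MI and 7.69 ± 0.25 after sham operation (SD, n = 4 each). The difference was 1.42 on the log2 scale (SE 0.21), a 2.67-fold rise with a 95% confidence interval from 1.97-fold to 3.63-fold (limma, adjusted p = 4.93e-05; exact permutation p = 0.0286). This exact p is the smallest that 4 mice against 4 mice allow.

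Ncf4, whose product p40phox supports oxidase activity at phagosomes, had log2 signals of 11.12, 11.29, 11.26 and 11.51 in MI mice, and 10.03, 9.74, 10.26 and 9.66 in the sham group. The groups did not overlap, and the MI mice were spread less (SD 0.16) than the sham-operated mice (SD 0.28). The rise was 1.38 on the log2 scale (SE 0.21), or 2.59-fold (95% confidence interval 1.92 to 3.50; limma, adjusted p = 5.29e-05; exact permutation p = 0.0286).

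Rac2, the GTPase that has to be loaded with GTP before the oxidase works, was printed on 10 spots of each array. Its log2 signals, averaged over the spots, were 9.93, 10.11, 10.11 and 10.39 in MI mice, and 8.92, 8.34, 8.75 and 8.21 in the sham group. Again no sham-operated mouse reached the lowest MI mouse. The SD over the spots of an array was between 0.038 and 0.081, and the SD between mice was 0.19 in MI mice, and 0.33 in the sham group. Rac2 had the largest difference among the 6 genes, 1.58 on the log2 scale (SE 0.22), or 3.00-fold (95% confidence interval 2.20 to 4.07; limma, adjusted p = 1.06e-05; exact permutation p = 0.0286).

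**Figure D1:**
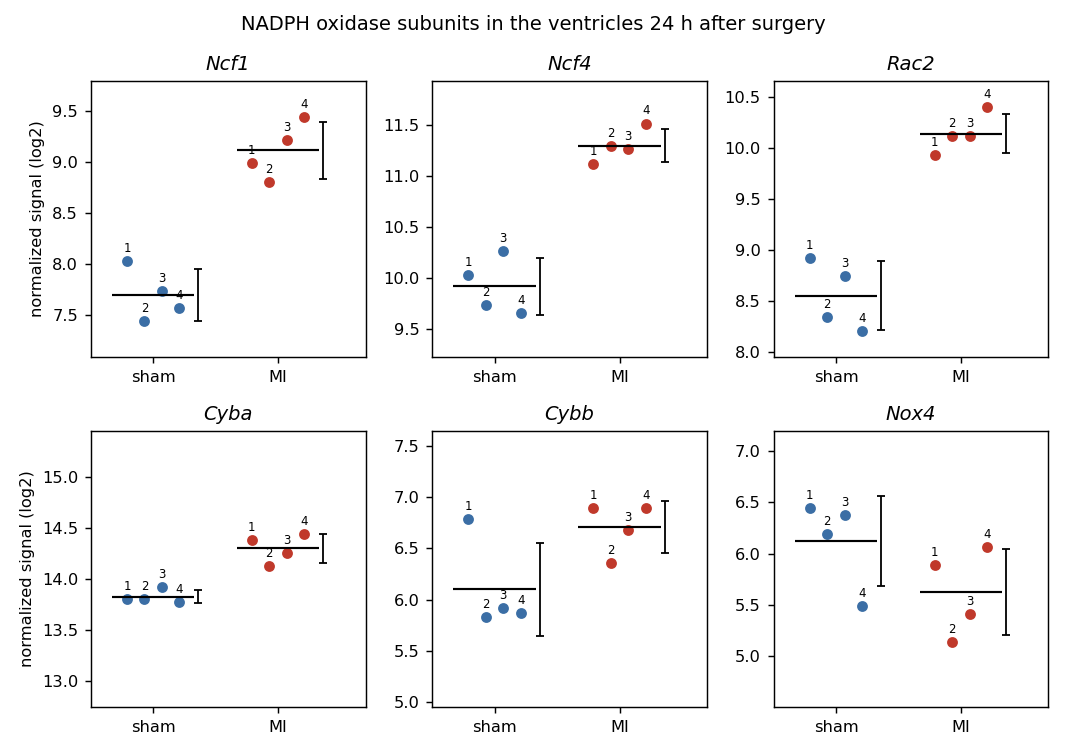
Normalized log2 signal of each NADPH oxidase subunit (vertical axis) in sham-operated (blue) and MI mice (red) 24 h after surgery. Each numbered point is 1 mouse, lines are group means and bars are ± SD (n = 4); MI mice lie above all sham-operated mice for Ncf1, Ncf4, Rac2 and Cyba, and the groups overlap for Cybb and Nox4.

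Cyba, the partner of both oxidases in the membrane, had log2 signals of 14.38, 14.12, 14.26 and 14.44 in MI mice, and 13.80, 13.81, 13.92 and 13.77 in the sham group. The groups did not overlap on this scale, at a small distance. The difference was 0.47 (SE 0.20), or 1.39-fold (95% confidence interval 1.05 to 1.84), and did not pass the test over all probes (limma, adjusted p = 0.166; exact permutation p = 0.0286). The adjusted p fell below 0.05, still short of 2-fold, after quantile normalization (limma, adjusted p = 0.0480), with the refit of vsn (limma, adjusted p = 0.0126), and without a change of scale in significance analysis of microarrays, the study's test (q = 0.00706). With equal 75th percentiles, the groups overlapped and the difference was 0.35 (exact permutation p = 0.0857). A second Cyba probe, detected on all 8 arrays, gave a difference of 0.36 (limma, adjusted p = 0.336), also without overlap of the groups.

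Cybb, the catalytic subunit, was dim on these arrays. Its log2 signals were 6.89, 6.36, 6.68 and 6.89 in MI mice, and 6.78, 5.83, 5.92 and 5.87 in the sham group, with processed intensities between 38.9 and 122 over the 8 arrays. Sham replicate 1 lay among the MI mice, while the other sham-operated mice lay below all of them. The difference was 0.61 (SE 0.23), or 1.52-fold (95% confidence interval 1.09 to 2.12), and did not pass the test (limma, adjusted p = 0.120; exact permutation p = 0.0857). Without sham replicate 1 it was 0.84 (limma, adjusted p = 0.0188), still short of 2-fold. On the array of this mouse, 65.8% of the spots were well above background, against 58.6% to 59.1% in the other sham-operated mice and 61.4% to 66.4% in MI mice. Whether this has a part in its Cybb value was not tested.

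Nox4 had log2 signals of 5.88, 5.14, 5.41 and 6.06 in MI mice, and 6.44, 6.19, 6.38 and 5.49 in the sham group. Sham replicate 4 lay below MI replicates 1 and 4, and the groups overlapped. The mean was 5.62 ± 0.42 after MI and 6.12 ± 0.44 after sham operation (SD, n = 4 each). The difference was −0.50 (SE 0.24), or 0.707-fold with a 95% confidence interval from 0.499-fold to 1.00-fold, and did not pass the test (limma, adjusted p = 0.253; exact permutation p = 0.171).

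Nox4 was dim as well, with processed intensities of only 25.0 to 87.9, and its value moved with the normalization, from −0.86 to −0.12. Its difference was −0.81 after scaling to the 75th percentile (limma, adjusted p = 0.0698), −0.86 after quantile normalization (limma, adjusted p = 0.0709) and −0.52 after normexp background correction (limma, adjusted p = 0.00873). Among these, only the value after normexp passed the adjusted threshold, and it was not over 2-fold. A second Nox4 probe was well above background on only 1 array and gave a difference of the opposite sign, 0.38. Its groups did not overlap, with MI mice higher (exact permutation p = 0.0286). That probe did not pass the filter on detection, so the direction given for Nox4 rests on 1 dim probe.

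**Figure D2:**
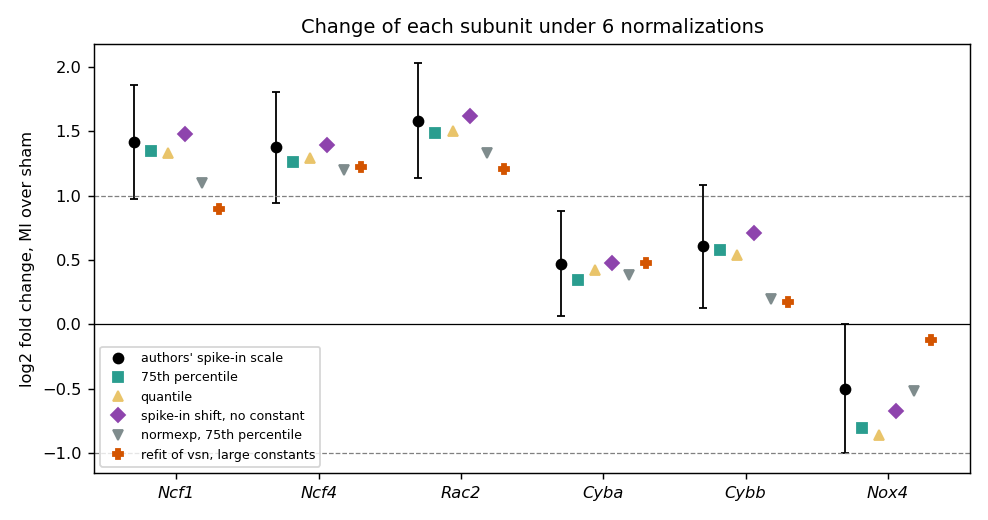
Log2 fold change (MI over sham, vertical axis) of each subunit under 6 normalizations, marked by symbol and colour, with the 95% confidence interval of limma for the spike-in scale and dashed lines at 2-fold. Ncf4 and Rac2 lie above 2-fold under every normalization drawn, Ncf1 falls to 0.90 with the refit of vsn, and Nox4 ranges from −0.86 to −0.12.

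Across the 6 genes, the groups did not overlap for 4, all of them phagocyte subunits and all with MI mice above. For comparison, the MI group lay wholly above the sham group for 8.46% of all retained probes, and below for 2.70%. Within the MI group, all 5 phagocyte subunits had their highest signal in replicate 4 on the spike-in scale. Among the sham-operated mice, 3 of the 5 (Ncf1, Cybb and Rac2) were highest in replicate 1 and the other 2 (Ncf4 and Cyba) in replicate 3. Nox4 was also highest in MI replicate 4 and in sham replicate 1 within its groups. These orders followed the scaling: with equal 75th percentiles, Ncf4, Cyba and Rac2 were highest in MI replicate 2, and Ncf4, Cyba and Nox4 in sham replicate 2.

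The arrays stood in 2 rows on 1 slide, with 2 mice of each group in each row. In row 1 the differences were 1.16 for Ncf1, 1.32 for Ncf4, 1.39 for Rac2, 0.44 for Cyba, 0.32 for Cybb and −0.80 for Nox4. In row 2 they were 1.68, 1.43, 1.78, 0.50, 0.90 and −0.20 in the same order. All 6 differences had the same sign in both rows. How many of all retained probes kept their sign between the rows was not counted. Over all 8 arrays, 64.9% of the retained probes had a difference above 0. With 2 mice per group, the adjusted p of Ncf1 and of Ncf4 in limma was 0.156 and 0.0574 in row 1 and 0.00221 and 0.0115 in row 2, and that of Rac2 was 0.0350 and 0.00245.

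To set the phagocyte subunits against Nox4, the log2 signal of Nox4 was subtracted from that of each subunit on the same array, and the groups were then compared. A scale factor of the array cancels in this subtraction, but the additive constant of the normalization does not, and it weighs on dim probes such as Nox4 and Cybb. The level of such a difference depends on both probes and carries no meaning. Relative to Nox4, all 5 subunits were higher in MI mice than in sham-operated mice, with no overlap between the groups. All 5 comparisons share the same Nox4 probe, whose own difference was −0.50, so they are not independent. How many of all retained probes were separated from Nox4 in this way was not counted. For Rac2, the subtracted values were 4.05, 4.97, 4.70 and 4.33 in MI mice, and 2.48, 2.15, 2.37 and 2.72 in the sham group. The difference between groups was 2.08 for Rac2, 1.92 for Ncf1 and 1.88 for Ncf4 (exact permutation p = 0.0286 for each of 5 comparisons, not adjusted). For the membrane subunits it was smaller, 1.11 for Cybb and 0.97 for Cyba. The sizes depended on the normalization: with the refit of vsn, which uses larger constants, they were 1.33 for Rac2, 1.02 for Ncf1, 1.34 for Ncf4, 0.29 for Cybb and 0.59 for Cyba, and after normexp Cybb (0.72) was likewise below Cyba (0.90). The groups were still separated in each of these (exact permutation p = 0.0286). The Cybb values were 1.01, 1.22, 1.27 and 0.83 in MI mice, and 0.34, −0.36, −0.46 and 0.38 in the sham group.

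The contrast of Cyba with Nox4 was the least stable of the 5. Its highest sham-operated mouse, replicate 4 with 8.28, lay just below the lowest MI mouse, replicate 4 with 8.38. With any 1 of the 4 MI mice left out, the groups still did not overlap, with differences between 0.87 and 1.07. The p was nevertheless higher (exact permutation p = 0.0571 each time). With the mean of both Cyba probes the difference was 0.91 (exact permutation p = 0.0571).

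**Figure D3:**
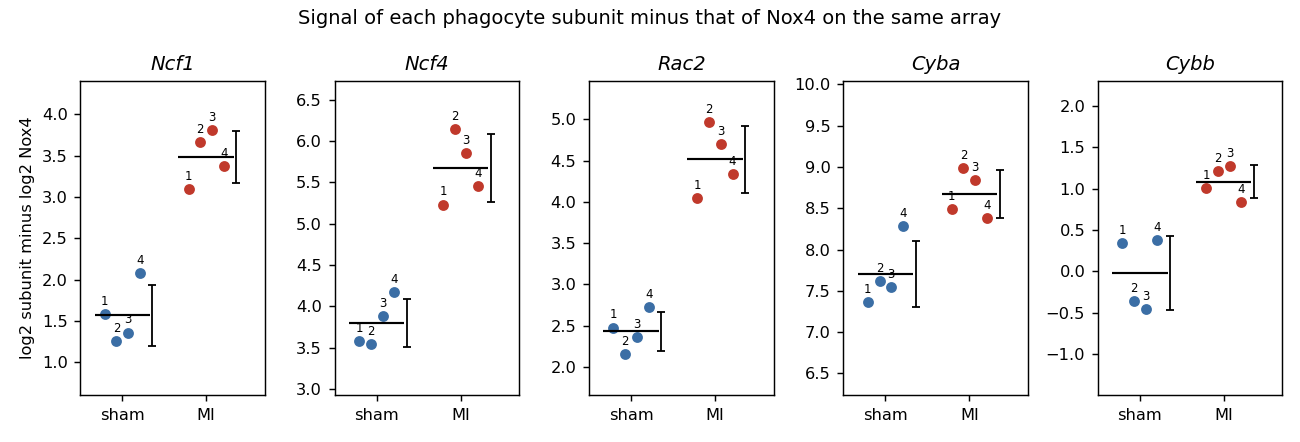
Log2 signal of each phagocyte subunit minus log2 signal of Nox4 on the same array (vertical axis) in sham-operated (blue) and MI mice (red). Each numbered point is 1 mouse, lines are group means and bars are ± SD (n = 4); MI mice lie above all sham-operated mice in all 5 panels, most narrowly for Cyba, and only the difference between groups can be read.

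After these values were seen, the cytosolic subunits were also compared with the membrane subunits in the same way. The rise of the cytosolic subunits exceeded the difference of Cyba by 0.95 for Ncf1, 0.90 for Ncf4 and 1.11 for Rac2, and that of Cybb by 0.81, 0.77 and 0.97. These comparisons share subunits and are not independent, and how many of all probes were separated from Cyba or Cybb was not counted. In 5 of the 6 comparisons there was no overlap between the groups (exact permutation p = 0.0286, not adjusted). The exception was Ncf4 against Cybb (exact permutation p = 0.0571), which reached 0.0286 in the same exact permutation test after quantile normalization (0.76), normexp (1.00), the refit of vsn (1.05) and without sham replicate 3 (0.94). Without sham replicate 1, Ncf1 minus Cybb was 0.69 and Rac2 minus Cybb was 0.87 (exact permutation p = 0.0571 for both). Without MI replicate 2, Rac2 minus Cybb was 0.87 (exact permutation p = 0.0571).

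The other genes of the oxidase pathway give the setting of these changes. Of 36 further genes, 31 had a retained probe, 6 of these rose and none fell, with a median log2 fold change of 0.31. At any fold, 10 had an adjusted p in limma under 0.05, all higher in MI mice. Over all probes, 6.30% were higher and 1.31% were lower by that rule.

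Among the other oxidases and their partners, 10 of 15 genes had a retained probe and none was called. Rac1, the Rac GTPase of most cell types, was 0.77 higher on the log2 scale (SE 0.21; limma, adjusted p = 0.0224), with values of 13.52 to 13.95 in MI mice, and 12.55 to 13.31 in the sham group. Sh3pxd2b, an organizer protein related to p47phox that acts in podosomes, was 0.88 higher (SE 0.22; limma, adjusted p = 0.0107). Both were short of 2-fold, and their groups did not overlap. Cybc1, a chaperone of the phagocyte flavocytochrome, differed by 0.47 (limma, adjusted p = 0.220), and the proton channel Hvcn1, which balances the charge moved by the oxidase, by 0.16 (limma, adjusted p = 0.745). The organizer and activator of the Nox1 oxidase, Noxo1 and Noxa1, differed by −0.14 and 0.00, and Nox1 itself by −0.09. Poldip2, which binds p22phox and stimulates NOX4, differed by 0.16 (limma, adjusted p = 0.766).

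Among the 21 regulators of Rac and of the oxidase, all with a retained probe, 6 rose. The formyl peptide receptors, which start the oxidative burst of neutrophils, had the largest changes of the pathway. Fpr2 rose from 6.71 to 7.05 in sham-operated mice to 9.84 to 10.51 in MI mice, a difference of 3.28 (SE 0.21; limma, adjusted p = 4.53e-11). Fpr1 rose by 3.08 (SE 0.22; limma, adjusted p = 3.31e-10). The subunits of the phosphoinositide kinase that acts downstream of such receptors also rose, Pik3r5 by 1.27 (limma, adjusted p = 9.47e-05) and Pik3cg by 1.03 (limma, adjusted p = 0.00105). Of the exchange factors that load Rac with GTP, Tiam2 rose by 1.55 (limma, adjusted p = 1.37e-05) and Vav1, the Vav protein of blood cells, by 1.02 (limma, adjusted p = 0.00129). Dock2, the exchange factor of leukocytes, was 0.71 higher and Prkcd, a kinase of p47phox, 0.98 higher, both past the adjusted threshold but not over 2-fold. Vav2, Vav3, Tiam1 and Prex1 did not pass the test, with differences from −0.11 to 0.38. Of the kinases related to Prkcd, Prkca, Prkcb and Prkcz did not pass either, with differences of −0.44, 0.15 and −0.05.

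**Figure D4:**
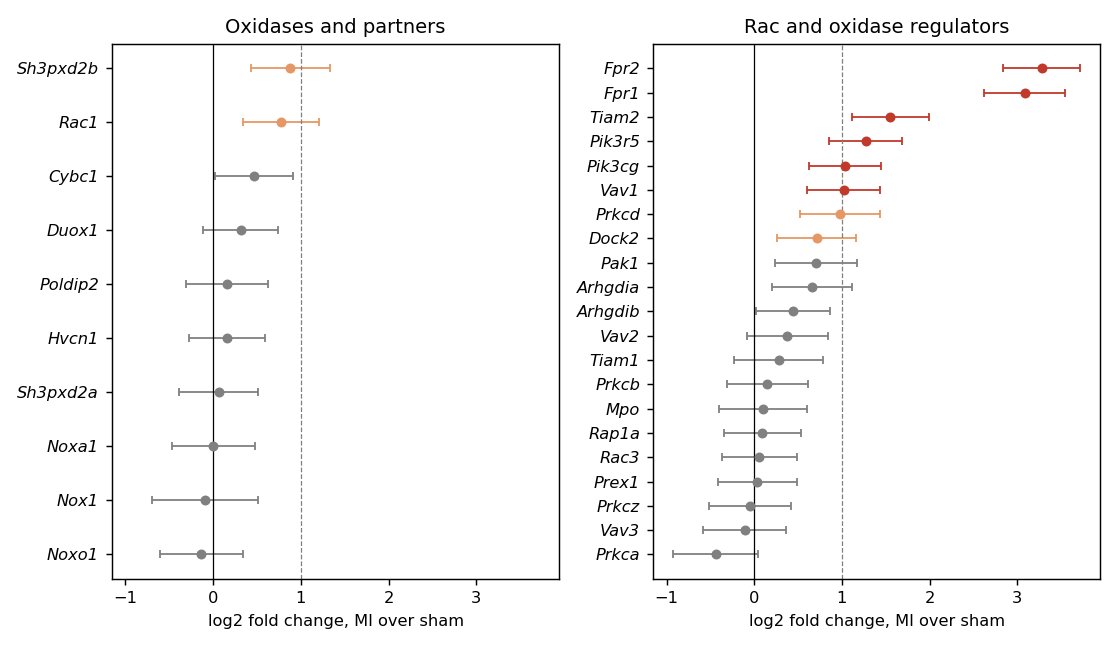
Log2 fold change (MI over sham, horizontal axis) of the other oxidase genes (left) and of regulators of Rac and the oxidase (right), with 95% confidence intervals of limma, n = 4 mice per group; red marks genes called, orange genes with an adjusted p under 0.05 but not over 2-fold, grey the rest, and the dashed line is 2-fold. The 6 genes called are all regulators, with Fpr2 and Fpr1 farthest to the right at 3.28 and 3.08.

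Markers of leukocytes in general and most neutrophil markers rose in MI mice, as did the cytosolic subunits. Ptprc, which encodes the leukocyte antigen CD45, had log2 signals of 7.77, 8.22, 8.18 and 8.40 in MI mice, and 7.22, 7.06, 7.15 and 6.75 in the sham group, a rise of 1.10 (SE 0.21; limma, adjusted p = 0.000906). All 5 markers of leukocytes in general rose, by 1.01 to 1.71. Their summed signal was between 8812 and 12158 in the MI group, against 3179 to 4453 in the sham group. Such sums are weighted towards the brightest probes. Of 9 measured neutrophil markers, 7 rose, with a median log2 fold change of 2.79 for the 9 and summed signals between 251513 and 369918 against 76422 and 121146. Csf3r and Lcn2 were the exceptions, with 0.08 and 0.64. Ngp, a neutrophil granule gene, was not well above background in any sham-operated mouse. It passed the filter on detection through the 4 MI mice alone, so its place among the 7 is no separate support. Its signal was at least 5.30-fold higher in MI mice, a bound set by the lowest signals still detected on the sham arrays. Of 9 measured monocyte and macrophage markers, 2 rose, Ccr2 by 1.15 and Cd14 by 2.25, and the median was 0.15 with overlapping sums. The part of these cells in the values of the subunits was not tested.

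Relative to Ptprc on the same array, a comparison added after the values were seen, the cytosolic subunits and Cybb differed less between the groups than on their own, and Cyba and Nox4 differed more. Rac2 was 0.48 higher in MI mice, without overlap (exact permutation p = 0.0286). Ncf1 and Ncf4 differed by 0.32 (exact permutation p = 0.143) and 0.28 (exact permutation p = 0.0857), and the groups overlapped. The membrane subunits differed in the other direction, Cyba by −0.63 (exact permutation p = 0.0571) and Cybb by −0.49 (exact permutation p = 0.171), also with overlap. Nox4 was lower by 1.60 on the log2 scale relative to Ptprc, with values of −1.89, −3.08, −2.77 and −2.34 in MI mice, and −0.77, −0.87, −0.78 and −1.27 in the sham group (exact permutation p = 0.0286). Ptprc itself rose by 1.10, so a gene without any change would come out lower by that much. These comparisons share Ptprc and are not independent, and their p values are not adjusted. How many of all retained probes were separated from Ptprc was not counted.

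Markers of the cells from which Nox4 is known were not called, apart from 1 of smooth muscle. None of 7 cardiomyocyte, 6 fibroblast and 7 endothelial markers passed, with medians of −0.05, −0.47 and 0.22. The summed signal of the fibroblast markers was between 42206 and 106002 in the MI group, against 79639 to 128849 in the sham group. This sum is weighted towards the brightest probe, that of Dcn, with log2 signals of 15.13 to 16.74. Of 5 smooth muscle markers, Acta2 rose, by 1.46, and the others did not. None of 2 T-cell and 4 B-cell markers was called. The cardiomyocyte markers, such as Myh6 with log2 signals of 18.42 to 19.16, were well above background on every array.

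The genes whose signal followed each subunit most closely over the 8 arrays are given as a description, by Pearson's r over 15080 genes. Since the groups differ, such an r follows the group difference as well as the spread between mice. For Ncf1 they were B4galnt1 (r = 0.998), Tnfrsf23 (r = 0.996) and Mthfd2 (r = 0.994), with log2 fold changes of 1.38, 1.43 and 1.61. For Ncf4 they were Marcksl1 (r = 0.996), the macrophage scavenger receptor Msr1 (r = 0.994) and the actin regulator of leukocytes Coro1a (r = 0.994). Msr1 was also among the genes closest to Rac2 (r = 0.994), beside Rbm47 (r = 0.994) and Slfn8 (r = 0.992).

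For the membrane subunits and Nox4, the closest genes were less close or less stable. For Cyba they were the chemokine Ccl9 (r = 0.985), Trp53 (r = 0.984) and Ms4a6d (r = 0.984), but after scaling to the 75th percentile the r of Trp53 was 0.739 and that of Ms4a6d 0.794. For Cybb they were Best3 (r = 0.980), Renbp (r = 0.974) and Dclre1b (r = 0.972), none of which passed the test between the groups. For Nox4 they were Negr1 (r = 0.977), Adamtsl1 (r = 0.972) and the mast cell protease Cpa3 (r = 0.965), with log2 fold changes of −0.45, −0.57 and −0.45, none past the test.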

How the data were processed

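Ventricular RNA of 8 mice (4 with MI, 4 sham-operated) was hybridized in 1 colour. The deposited intensities were, per the file headers, processed by Feature Extraction 11.0.1.1, with the local background subtracted and no normalization between arrays. The deposited log2 values of the authors, normalized with spike-in probes by limma and vsn, cover spots well above background. The scale and constant per array (constants 3.16 to 19.6) were recovered from them with a largest misfit of 5.02e-09 on the log2 scale and applied to every spot. An additive constant holds back fold changes of dim probes such as Cybb and Nox4. Outlier spots and control probes were left out, spots of a probe averaged, and 34038 of 55681 probes, detected above background on 4 or more arrays, retained.

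Genes were matched through RefSeq accessions to the GRCm38 annotation, and the brightest retained probe of each was used. Groups, taken from the sample labels, were compared with limma 3.58.1 (R 4.3.3) without covariates, after the script was tested on simulated data, and single values with an exact two-sided permutation test. Python 3.11.15 with numpy 2.4.6, scipy 1.17.1, pandas 2.3.3 and matplotlib 3.10.9 did the rest. The study's own test, significance analysis of microarrays, was an alternative, with other normalizations, filters, tests, blocks and each mouse left out. The labels do not state that mice of the same replicate number were paired. The genes named are the members, the pathway list, Ptprc, the 3 genes closest to each member, and markers that show the range of a list. Members, lists and tests were chosen with earlier results of these data known. Sequences are from RefSeq. An item of the pathway list is not reported here. Precision is limited by the number of arrays.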

Additional observations from a re-analysis of the deposited data

Results flagged for a closer look

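Within a group of 4 mice, a value was singled out when its gap to the nearest other value exceeded, as a share of the range of the group, Dixon's 95% critical value, which chance alone does in about 1 in 20 groups. Over the subunits, their differences within an array, the pathway genes and Ptprc, 100 groups were examined and 7 held such a value. Cybb in sham replicate 1 had a log2 signal of 6.78, against 5.83 to 5.92 in the other sham-operated mice, with a gap of 0.904 of the range. Prkcz in the same mouse had 6.46, against 5.97 to 5.99. The other 5 values all belonged to MI replicate 4, and each was the highest of its group: Duox1 with 5.67 (others 5.51 to 5.53), Vav3 with 7.71 (6.76 to 6.89), Prex1 with 9.26 (8.76 to 8.77), Prkcb with 8.51 (7.75 to 7.80) and Pak1 with 6.52 (5.66 to 5.75).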

How the results depend on the processing

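Against 1184 probes called, 333 were called with an own refit of vsn, 522 with normexp, 578 with an unmoderated t-test after the Benjamini-Hochberg adjustment, 1163 with significance analysis of microarrays, the study's test, and 2590 at any fold; the overlap of these sets was not counted. With 1 mouse left out the count ranged from 1046 to 1461. The members called numbered 3 with any mouse left out and 2 or 3 under the other settings, Ncf1 being lost with the refit (0.90). The 6 pathway genes called became 2 with the refit, 3 with normexp and 10 at any fold, and 4 to 7 with 1 mouse left out. The second Nox4 probe gave 0.38 without overlap of the groups (exact permutation p = 0.0286), but it was well above background on 1 array and on no sham array. The direction given for Nox4 therefore rests on 1 dim probe. Cyba minus Nox4 was 0.91 with the mean of all probes. With 1 mouse left out, the differences from Nox4 ranged from 1.81 to 2.09 for Ncf1, 1.72 to 2.02 for Ncf4, 0.86 to 1.17 for Cyba, 0.96 to 1.24 for Cybb and 1.93 to 2.24 for Rac2. With the refit they were smaller, at 1.02 for Ncf1, 1.34 for Ncf4, 0.59 for Cyba, 0.29 for Cybb and 1.33 for Rac2. Causes of these changes were not tested, except that fewer mice or genes follow from the settings.

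Deviations of same-numbered mice correlated by 0.238, 0.292, 0.143 and 0.0114, and those of mice with different numbers by −0.327 to 0.226. Since 1 of the same-numbered values was not over 0.1, the numbers were not taken as pairs. With the replicate number as a block, limma called 1155 probes and 3 members, and Cyba (adjusted p = 0.0416) and Cybb (adjusted p = 0.0476) passed at any fold. The differences from Nox4 stayed at 1.92 for Ncf1, 1.88 for Ncf4, 0.97 for Cyba, 1.11 for Cybb and 2.08 for Rac2 with this block (exact permutation p = 0.125, the smallest possible) and with the array row as a block (exact permutation p = 0.0556, the smallest possible), designs too small to pass. Dim signals, as for Cybb and Nox4, limit what these arrays can show.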
